A study of Mus musculus with 2 samples.

Results

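Gpr17- or Enpp6-gated cells of the oligodendrocyte lineage were studied in dissociated thalamus of wildtype C57BL/6J mice, an inbred laboratory strain, at 2 months of age. The 2 mice were untreated, gave 1 droplet-based 3' single-cell RNA library each and form a single group, so the comparisons set cell populations of the same animals against each other. The gated cells were chosen by measured values: Gpr17 or Enpp6 at 5 unique molecular identifiers (UMIs) or more, Pdgfra at 2 or fewer, and Aqp4, Cldn5 and Cx3cr1, which mark astrocytes, endothelial cells and microglia, at 2 or fewer each. Of 6366 cells kept from mouse 1 this gate took 504 (7.92%, exact 95% interval 7.27 to 8.61) and of 9438 from mouse 2 it took 916 (9.71%, 9.12 to 10.3), or 1420 of 15804 in all. Intervals of this kind cover counting error only. They were set against 75 and 585 precursors in mouse 1 and mouse 2 (Pdgfra at 3 or more, Gpr17 at 4 or fewer) and against 1514 and 2405 mature oligodendrocytes (Mog, Mag and Ermn together at 5 or more per 10000 UMIs, Gpr17 and Enpp6 at 2 or fewer). In both comparison populations Aqp4, Cldn5, Cx3cr1 and the fibroblast gene Dcn also had to stand at 2 or fewer each, and in mature oligodendrocytes Pdgfra as well. Dcn was not used for the gated cells. Without these further limits there were 101 and 643 precursors and 1642 and 2511 mature oligodendrocytes.

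Oligodendrocytes make the myelin that wraps axons and arise throughout life from dividing precursors that carry the growth factor receptor Pdgfra. A precursor that leaves the cell cycle passes through a short committed stage, marked by the G protein-coupled receptor Gpr17, and then through a newly formed stage in which the choline phosphodiesterase Enpp6, the adaptor Bcas1 and the transcription factor Tcf7l2 are high and the sheath is laid down. In the mature cell these genes are low and myelin genes remain high.

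Cells were kept from 500 genes and 1000 UMIs upwards with mitochondrial UMIs of no more than 15%, and their median was 18336 UMIs in mouse 1 and 14974 in mouse 2. Gated cells were the deepest of the populations compared, with medians of 32319.5 and 21437 UMIs, against 11756 and 14381 in precursors and 22258.5 and 12893 in mature oligodendrocytes. The libraries shared 18 of the kept barcodes, 2 of them in gated cells of mouse 1. Doublet calls fell on 6 and 12 gated cells, 1 and 32 precursors and 10 and 28 mature oligodendrocytes. They covered 2.81% and 2.66% of kept cells, where 6.31% and 9.69% were expected from the number of barcodes, so doublets may remain uncalled. Levels are in CPM, the UMIs of a gene in a population of 1 mouse scaled to the same total for every population, and are listed for mouse 1 and then mouse 2. A mean carries its SD over the 2 mice (n = 2). A log2 fold change carries an approximate SE, its size divided by the square root of the F statistic of the edgeR test. This SE is not the scatter of the 2 mice. With 2 mice, p-values rest only on how the differences between populations varied between these animals and on variances shared across genes.

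The label of committed and newly formed oligodendrocytes did not hold for most of these cells. Of the gated cells, 486 of 504 in mouse 1 (96.4%) and 837 of 916 in mouse 2 (91.4%) also lay over the mature threshold on Mog, Mag and Ermn. The split ran along the gate. Cells with Gpr17 at 5 or more numbered 44 and 142 and are called Gpr17-gated, and those with Enpp6 at 5 or more but Gpr17 under 5 numbered 460 and 774 and are called Enpp6-only. Over the mature threshold lay 28 of 44 and 64 of 142 Gpr17-gated cells, and 458 of 460 and 773 of 774 Enpp6-only cells. For the 5 marker genes of the label (Gpr17, Enpp6, Bmp4, Bcas1 and Tcf7l2), the summed level was 7389 and 8172 CPM in Gpr17-gated cells and 1016 and 1079.9 CPM in Enpp6-only cells, against 833 and 888 CPM in precursors and 771 and 822 CPM in mature oligodendrocytes. This sum holds Gpr17 and Enpp6, whose levels the gate set, and is a description. Bmp4, Bcas1 and Tcf7l2 alone summed to 5029.5 and 5605 CPM in Gpr17-gated cells and 644 and 641 CPM in Enpp6-only cells, against 708 and 757 CPM in precursors and 756 and 798 CPM in mature oligodendrocytes. The cells are therefore called by their gate below. The division was chosen after the cell counts were seen, since 7 cells of mouse 1 passed on Gpr17 alone.

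**Figure D1:**
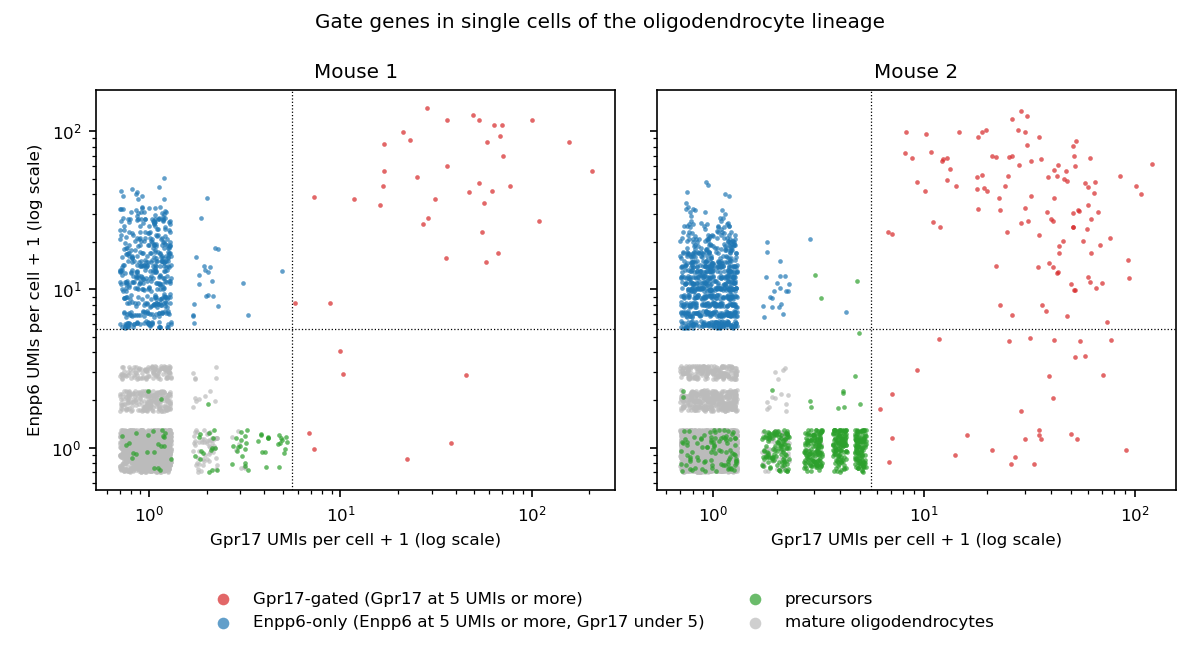
Gpr17 and Enpp6 UMIs per cell (plus 1, log scales, points spread by a small random shift) in the 2 mice, 1 point per cell, with dotted lines at the gate. The 44 and 142 Gpr17-gated cells (red) mostly carry high Enpp6 as well, while the 460 and 774 Enpp6-only cells (blue) have Gpr17 at 0 to 4, as do precursors (green), and mature oligodendrocytes (grey) lie at 2 or fewer of both.

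The values that chose the cells are given as a description. Gpr17-gated cells had a median of 35 and 34 Gpr17 UMIs, with a maximum of 205 and 120, and a median of 40.5 and 27 Enpp6 UMIs. Both genes reached 5 UMIs in 37 and 112 of them, and 7 and 30 had Gpr17 alone. Enpp6-only cells had a median of 12 and 9 Enpp6 UMIs and of 0 Gpr17 UMIs. At the edge of the gate, 44 and 95 cells had exactly 5 UMIs of the higher gate gene, which was Enpp6 in 44 and 94 of them, and 44 and 94 of these cells lay over the mature threshold. Just outside it, 48 and 124 cells had 4 UMIs, Enpp6 was the higher gene in 45 and 122, and 48 and 123 lay over the mature threshold. On both sides of the gate, nearly all cells were therefore over the mature threshold.

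Passing the Enpp6 gate went with depth. Among cells over the mature threshold, Enpp6 reached 5 UMIs in 3.77%, 14.4%, 26.8% and 46.2% of cells from the lowest to the highest quartile of UMIs in mouse 1, and in 2.38%, 9.43%, 25.9% and 56.7% in mouse 2. Enpp6 per 10000 UMIs was also higher in deeper cells, at 0.580, 0.879, 1.37 and 2.15 over the quartiles in mouse 1 and 0.932, 0.982, 1.76 and 3.34 in mouse 2. The cells in these quartiles passed the limits on Pdgfra, Aqp4, Cldn5 and Cx3cr1. They include the 28 and 64 Gpr17-gated cells over the threshold, with medians of 52.5 and 51 Enpp6 UMIs and depths of 42007.5 and 32296.5 UMIs. The part of these cells in the rise was not tested. Comparisons with mature cells are therefore also given with the mature cells matched in UMIs per cell, an alternative chosen after seeing the data.

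The promoters of 3 genes are shown from RefSeq (GRCm38.p6), 5′ to 3′ on the gene's strand. They are Enpp6, which set the gate, Bmp4, high in Gpr17-gated but not in Enpp6-only cells, and S100b, high in both kinds of gated cell. Each window runs from 250 bases before to 50 bases after the start of the gene, and capitals mark matches to ACAAT, a core of the motif bound by Sox factors, on either strand (ATTGT). These windows lie at chr8:46986637-46986936 on the plus strand for Enpp6, chr14:46390620-46390919 on the minus strand for Bmp4 and chr10:76253586-76253885 on the plus strand for S100b.
Enpp6: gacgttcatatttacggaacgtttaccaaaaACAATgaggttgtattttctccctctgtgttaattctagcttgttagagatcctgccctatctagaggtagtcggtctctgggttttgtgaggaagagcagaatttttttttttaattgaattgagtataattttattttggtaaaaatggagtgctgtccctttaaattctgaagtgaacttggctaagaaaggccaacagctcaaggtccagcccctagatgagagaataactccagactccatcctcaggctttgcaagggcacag
Bmp4: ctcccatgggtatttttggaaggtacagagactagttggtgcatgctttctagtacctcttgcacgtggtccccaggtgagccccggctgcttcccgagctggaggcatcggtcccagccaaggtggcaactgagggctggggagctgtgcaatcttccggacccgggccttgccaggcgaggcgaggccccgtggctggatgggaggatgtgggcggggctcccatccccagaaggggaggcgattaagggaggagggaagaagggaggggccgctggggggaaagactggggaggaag
S100b: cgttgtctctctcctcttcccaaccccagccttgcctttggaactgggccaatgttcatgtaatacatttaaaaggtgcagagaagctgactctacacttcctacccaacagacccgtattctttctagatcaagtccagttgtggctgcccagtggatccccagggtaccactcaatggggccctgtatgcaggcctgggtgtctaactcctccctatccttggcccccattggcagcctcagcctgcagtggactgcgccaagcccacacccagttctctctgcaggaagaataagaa
Enpp6 held 1 match to ACAAT and the other windows 0, where 31.0% of 32851 RefSeq windows of this length held at least 1. The E-box CAGCTG, a motif of basic helix-loop-helix factors that reads the same on both strands, was in none of the 3 windows and in 16.3% of all. A match is only a string of letters, and its absence from a window says nothing about the factor.

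Bmp4, Bcas1 and Tcf7l2, the markers that did not set the gate, were highest in Gpr17-gated cells. Bmp4, a secreted bone morphogenetic protein, stood at 1027 and 472 CPM in Gpr17-gated cells under the mature threshold, 563 and 275 CPM in those over it and 0.404 and 0.154 CPM in Enpp6-only cells, against 2.11 and 0.920 CPM in precursors and 0.761 and 0.299 CPM in mature oligodendrocytes. Both kinds of Gpr17-gated cell were far above every other population. Bcas1, an adaptor of myelinating cells, had 4405 and 4664 CPM in Gpr17-gated cells under the threshold, 2829 and 3178 CPM in those over it and 540.4 and 473 CPM in Enpp6-only cells, against 521 and 490.3 CPM in precursors and 653 and 622 CPM in mature oligodendrocytes. Enpp6-only cells and precursors overlapped in Bcas1. Tcf7l2, a Wnt pathway transcription factor, had 598 and 617 CPM in Gpr17-gated cells under the threshold, 1257 and 2031 CPM in those over it and 103 and 168 CPM in Enpp6-only cells, against 185 and 266 CPM in precursors and 103 and 176 CPM in mature oligodendrocytes. Microglia, taken as cells outside the lineage, had 268 and 375 CPM of Tcf7l2, and of the populations compared Gpr17-gated cells alone lay above that level in both mice. These microglia were not limited on Gpr17, Enpp6 or mature genes, and 41 of 919 and 36 of 561 lay over the mature threshold.

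Gpr17-gated cells under and over the mature threshold differed in further genes, given as levels with no test. The threshold is set on Mog, Mag and Ermn, so genes that vary with these across cells can differ through the split alone. The genes shown were picked with their values in view. Under it were 16 cells in mouse 1 and 78 in mouse 2, over it 28 and 64, and 16 and 34 of all these lay within 2-fold of it. Median depth was 22164.5 and 19817.5 UMIs under it and 42007.5 and 32296.5 over it. The 7 mural cell markers summed to 623 and 10.0 CPM under it and 26.5 and 5.45 CPM over it, and the 8 neuron markers to 242 and 2034 CPM under it and 154 and 569.7 CPM over it. The 5 precursor markers summed to 849 and 1518 CPM under it and 172 and 202 CPM over it. The part of these and of depth in the levels was not tested. The kinase Fyn, which acts in process outgrowth, was higher under the threshold, with 4865 and 4604 CPM, than over it, with 3132 and 3069 CPM. Neu4, a sialidase, stood at 516 and 651 CPM under the threshold and 289 and 239 CPM over it. These genes were higher under the threshold in both mice. Sox6, a transcription factor of precursors, stood at 2061 and 1955 CPM under the threshold and at 1046 and 976 CPM over it, against 2157 and 1420.4 CPM in precursors and 7.36 and 10.8 CPM in mature oligodendrocytes. Other genes were higher over the threshold. 9630013A20Rik had 727 and 541 CPM under it and 2577 and 2592 CPM over it. It is annotated as an antisense RNA, and since the counting strand was not given in the sources used here, reads of an overlapping gene cannot be told apart. Neurofascin, Nfasc, an adhesion molecule of the paranode, had 1015 and 1117 CPM under it and 3490.1 and 6392 CPM over it, against 537 and 729 CPM in mature oligodendrocytes, so that both kinds of Gpr17-gated cell lay above mature cells. Mbp, myelin basic protein, had 1861 and 985 CPM under it and 5432 and 5887 CPM over it, against 4195 and 3987 CPM in mature oligodendrocytes. Mobp, another myelin protein, had 28.8 and 13.4 CPM under it and 1063 and 817 CPM over it, against 2317 and 1999.6 CPM in mature oligodendrocytes. Precursors had 83.5 and 86.9 CPM of Mobp, above the Gpr17-gated cells under the threshold.

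**Figure D2:**
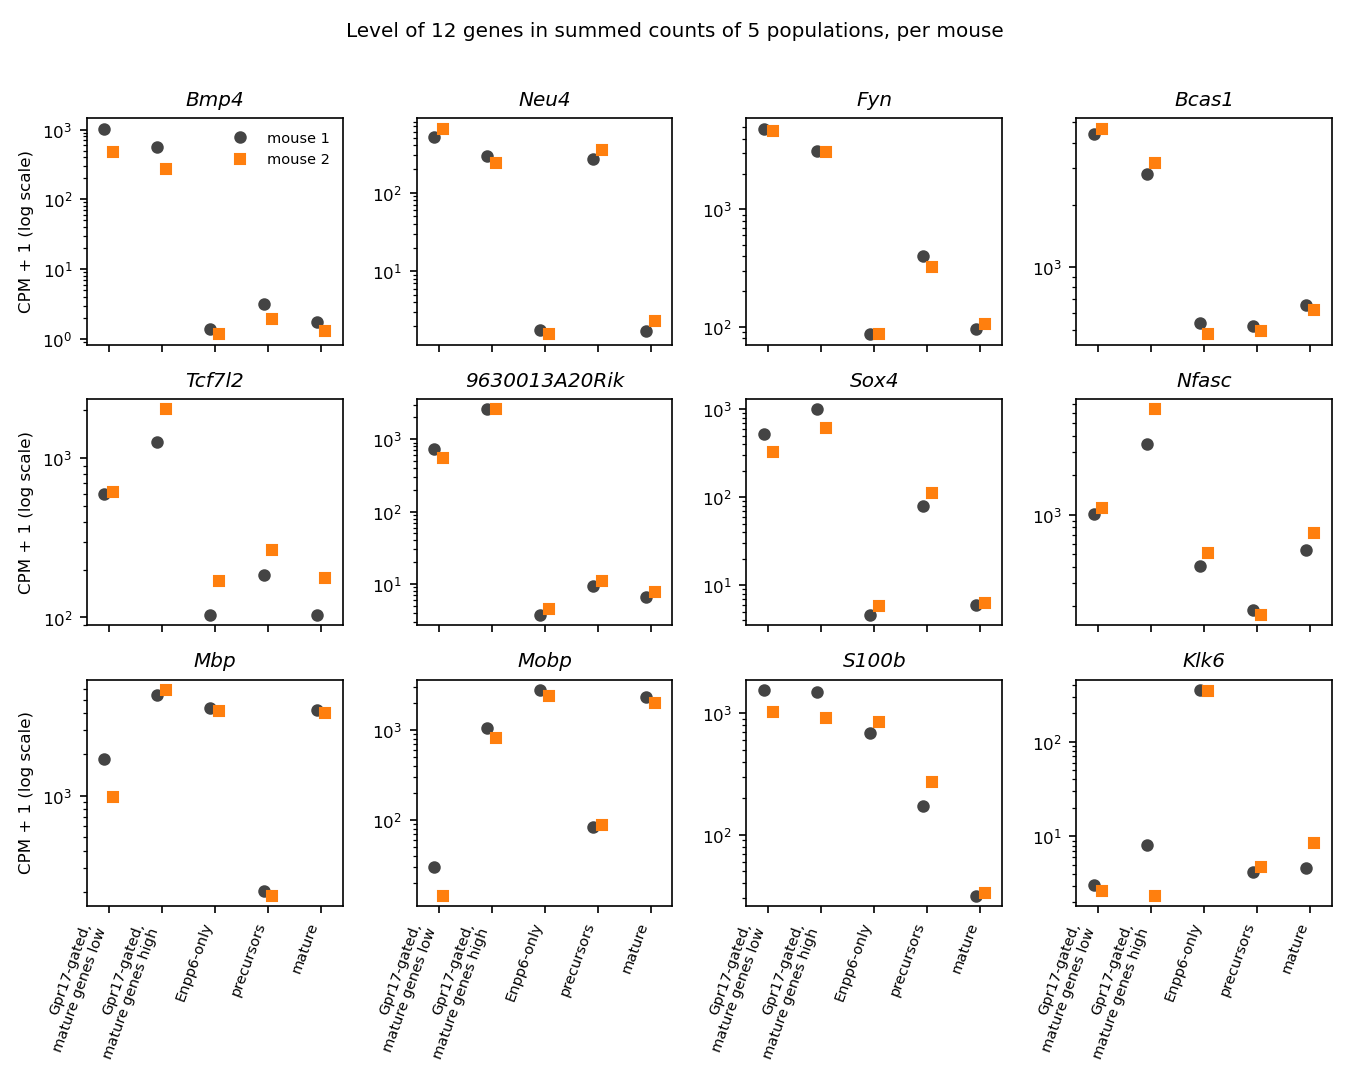
CPM plus 1 (log scales, which differ between panels) of 12 genes in Gpr17-gated cells under and over the mature threshold, Enpp6-only cells, precursors and mature oligodendrocytes, 1 point per mouse. Bmp4, Neu4, Fyn and Bcas1 are highest in Gpr17-gated cells with low mature genes, Tcf7l2, 9630013A20Rik, Sox4 and Nfasc in those with high mature genes, and Klk6 in Enpp6-only cells at 352 and 341 CPM.

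As a single population, the gated cells were higher than precursors in myelin and mature subtype genes and lower in precursor genes. Of 16453 genes tested with the edgeR quasi-likelihood (QL) test, 2424 (14.7%) were called higher and 2497 (15.2%) lower, 29.9% together, where a gene is called at a Benjamini-Hochberg (BH) adjusted p under 0.05 with a log2 fold change of 1 or more in size. Of the myelin protein list 24 of 27 tested genes were higher and 2 lower, with a median log2 fold change of 4.39 beside 0.10 over all genes. Of the mature subtype list, genes known to vary among mature oligodendrocytes, 19 of 20 were higher. Of the precursor list 24 of 28 were lower and 1 was higher, the gap junction gene Gjc3 (1.09 ± 0.22). The committed and newly formed list had 18 of 35 higher and 2 lower, Neu4 (−2.29 ± 0.23) and the receptor Gpr27 (−1.58 ± 0.34), at a median of 1.21. The lists were chosen with earlier results of these data known. The 10 genes of the gates were left out of all counts of calls, though not of the fit, and genes that vary with them across cells can differ through the choice of the cells alone.

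Among single genes, Bmp4 was higher by 6.08 ± 0.44 (63.2 ± 1.65 CPM in gated cells, against 1.52 ± 0.844 CPM in precursors) and Bcas1 by 1.21 ± 0.25 (920.1 ± 181 CPM in gated cells, against 506 ± 21.7 CPM in precursors), while Tcf7l2 was not called (edgeR QL, BH-adjusted p of 0.0687). Klk6, a secreted serine protease, was higher by 6.84 ± 0.46 and Apod, apolipoprotein D of mature cells, by 5.80 ± 0.41. The lineage transcription factor St18 was higher by 5.48 ± 0.46 and the fatty acid elongase Elovl7 by 4.44 ± 0.25. Lower were the growth factor target Etv4 (−7.31 ± 0.26), the cyclin Ccnd1 (−7.24 ± 0.27), the precursor proteoglycan Cspg5 (−5.91 ± 0.27) and the potassium channel-interacting protein Kcnip3 (−6.39 ± 0.46). With the gated cells over the mature threshold left out, 18 and 79 cells remained, 426 genes were higher and 657 lower, and the sign turned for Klk6 (−1.08), Apod (−1.26), Neu4 (0.81) and Gpr27 (0.54). The 8 neuron markers, all detected in both populations, summed to 551 and 1598 CPM in gated cells, against 928 and 2575 CPM in precursors, and their part in the result was not tested.

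Against mature oligodendrocytes, the pooled gated cells differed in few genes, 132 higher (0.802%) and 22 lower (0.134%) of 16453, or 0.936%. Some genes called were those high in Gpr17-gated cells: Bmp4 was higher by 6.81 ± 0.37, Neu4 by 5.52 ± 0.28, 9630013A20Rik by 5.16 ± 0.21, the transcription factors Sox6 and Sox4 by 4.25 ± 0.46 and 3.95 ± 0.22, the proteoglycan Vcan by 4.63 ± 0.37, the tubulin Tubb2b by 4.15 ± 0.33 and the actin-binding Marcks by 3.64 ± 0.25. Others were high in Enpp6-only cells: Klk6 by 5.72 ± 0.39, the homeodomain-only protein Hopx by 4.89 ± 0.48, annexin A5, Anxa5, by 2.84 ± 0.18, the exchange factor Rapgef5 by 2.43 ± 0.18 and the calcium-binding protein S100b by 4.56 ± 0.29, the last in both kinds of cell. Lower were Ptgds, a prostaglandin D synthase (−3.10 ± 0.37), the long noncoding RNA Pvt1 (−1.68 ± 0.18) and the poly(A) polymerase Tent5a (−2.04 ± 0.18). Myelin protein, cholesterol and fatty acid genes were not among those called. Bcas1 at 0.40 ± 0.25 and Tcf7l2 at 0.88 ± 0.21 were not called (edgeR QL, BH-adjusted p of 0.738 and 0.18).

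Genes called higher against both neighbours numbered 62 (0.377% of 16453) and genes called lower against both 5 (0.0304%). Those higher included Bmp4, 9630013A20Rik, Klk6, Anxa5, S100b (2.23 ± 0.26 against precursors) and the cytoskeletal protein Epb41l2 (2.91 ± 0.22 against precursors). With mature cells matched in UMIs per cell, which left 145 and 365 of them, 10 genes were higher and 0 lower (edgeR QL, with 1257 genes at an unadjusted p under 0.05), and the calls of Klk6 (5.73), Sox4 (3.08), Sox6 (4.03), Vcan (4.76), Tubb2b (3.49), Hopx (4.52), Rapgef5 (2.62), Ptgds (−2.86), Pvt1 (−1.69) and Tent5a (−1.87) were lost. With as many mature as gated cells (504 and 916) and no matching, 71 genes were higher and 13 lower, so the parts of depth and of cell number cannot be told apart. Without the mouse as a block, 36 were higher and 1 lower, and Hopx, Marcks, Ptgds, Pvt1 and Tent5a lost their calls. With DESeq2, 514 were higher and 121 lower.

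Gpr17-gated cells were higher than precursors in nearly the whole list of committed and newly formed genes. Of 16097 genes, 1597 (9.92%) were called higher and 1903 (11.8%) lower, 21.7% together. Of the committed and newly formed list 32 of 36 were higher, at a median of 2.93 beside −0.02 over all genes. This list was chosen with earlier results of these data known. Gpr17 divides these populations, and Gpr17-gated from Enpp6-only cells below. Genes that vary with it across cells can therefore differ through this choice alone. Bmp4 had 691 and 363 CPM in Gpr17-gated cells, against 2.11 and 0.920 CPM in precursors, a log2 fold change of 8.66 ± 0.31 (edgeR QL, BH-adjusted p of 0.00021). After every cell was thinned to 5000 UMIs, a Bmp4 UMI was found in 72.1% (95% interval 56.3 to 84.7) and 55.7% (47.1 to 64.1) of Gpr17-gated cells, against 1.37% and 0.694% of precursors and 0.670% and 0.183% of microglia, whose medians before thinning were 13224 and 9874 UMIs. Unthinned, the shares were 81.8% and 68.3% in Gpr17-gated cells, against 1.33% and 1.20% in precursors. The noncoding RNA 9630013A20Rik was higher by 7.78 ± 0.35, Bcas1 by 2.98 ± 0.28 and Tcf7l2 by 2.63 ± 0.24. The kinesin Kif19a was higher by 6.46 ± 0.38 (167 ± 1.19 CPM in Gpr17-gated cells, against 2.18 ± 0.0954 CPM in precursors) and the phosphoinositide 3-kinase subunit Pik3r3 by 4.12 ± 0.35. Prom1, prominin 1, was higher by 7.49 ± 1.11, with 89.7 and 349 CPM over the mature threshold and 2.05 and 0 CPM under it, and without cells over the threshold it stood at −1.12.

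Precursor genes were mostly lower. Of the precursor list 18 of 28 were lower and 1, Gjc3, higher (1.69 ± 0.25), at a median of −1.83. Cspg5, a proteoglycan, stood at 9.05 and 19.3 CPM in Gpr17-gated cells, against 1161 and 1359 CPM in precursors (−6.32 ± 0.32). The endothelin receptor Ednrb was lower at −4.84 ± 0.45, the secreted protein Emid1 at −4.65 ± 0.54 and the retinoid-binding protein Rlbp1 at −4.55 ± 0.40. Among lineage transcription factors 11 of 33 were higher and 9 lower. St18 (5.24 ± 0.44) and Myrf, the master regulator of myelin genes, were higher, Myrf with 171 and 173 CPM in Gpr17-gated cells, against 10.6 and 15.3 CPM in precursors (3.81 ± 0.25).

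Of the cell cycle and growth factor genes that were called, nearly all were lower. Of the cell cycle list 13 of 28 genes were lower and 1 higher, the cyclin-dependent kinase inhibitor Cdkn1c (1.95 ± 0.31). Ccnd1, cyclin D1, stood at 2.83 and 6.76 CPM in Gpr17-gated cells, against 378 and 588 CPM in precursors (−6.41 ± 0.30). Of the growth factor and Notch list 14 of 30 were lower and 1, the ligand Pdgfa, was higher (3.40 ± 0.38). Etv4 and Etv5, transcription factors induced by receptor tyrosine kinases, were lower at −6.46 ± 0.31 and −5.24 ± 0.41, and the feedback inhibitor Spry1 at −4.80 ± 0.26. In the BMP and Wnt list 4 of 31 were higher, near the 9.92% of all genes, and 10 were lower, where 11.8% of all genes were. The 4 were Bmp4, Tcf7l2, the inhibitory Smad7 (2.73 ± 0.22) and the formin Daam2 (1.95 ± 0.33, and −0.59 without the cells over the threshold), while Bmp7 was lower at −4.26 ± 0.62.

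Most genes of the myelin protein and cholesterol lists were higher, and a smaller share of the fatty acid and cytoskeleton lists. Of myelin proteins 18 of 27 were higher and 1 lower, the adhesion receptor Adgrb3 (−2.22 ± 0.38). Mbp was higher by 4.54 ± 0.29 (4069 ± 538 CPM in Gpr17-gated cells, against 195 ± 11.2 CPM in precursors), Cnp, a myelin phosphodiesterase, by 4.39 ± 0.32, the tight junction protein Cldn11 by 4.23 ± 0.28 and Nfasc by 4.40 ± 0.31. Of the mature subtype list 9 of 20 were higher. Of cholesterol synthesis 19 of 25 were higher, at a median of 1.42, among them Hmgcs1 (2.04 ± 0.24) and Fdps (1.75 ± 0.19). Of the fatty acid and sphingolipid list 10 of 29 were higher and 3 lower. Elovl7 was higher by 4.12 ± 0.27, the fatty acid-binding Fabp5 by 2.99 ± 0.32, and the galactolipid enzymes Ugt8a and Fa2h by 2.22 ± 0.25 and 2.15 ± 0.24. Of the cytoskeleton list 20 of 42 were higher and 7 lower. The small GTPase Rnd2 was higher by 4.62 ± 0.38, the Arp2/3 subunit Arpc1b by 4.50 ± 0.28 and the dynein light chain Dynll2 by 3.77 ± 0.43, while doublecortin, Dcx, was lower at −3.53 ± 0.42. Without the cells over the mature threshold, which left 16 and 78 Gpr17-gated cells, 660 genes were higher and 987 lower, and the calls of Gjc3 (0.97), Pdgfa (0.79), Adgrb3 (−1.40), Cldn11 (1.30), Hmgcs1 (0.62), Fdps (0.14), Ugt8a (0.71), Arpc1b (0.67) and Smad7 (0.04) were lost.

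Most transmitter receptors and channels were lower. Of transmitter receptors and channels 41 of 67 were lower and 3 higher, the potassium channels Kcna1, Kcna2 and Kcnj10 (2.93 ± 0.32, 1.66 ± 0.19 and 1.07 ± 0.22), at a median of −2.28. Without the cells over the mature threshold Kcna2 stood at 0.54 and Kcnj10 at 0.30, neither of them called. Kcnip3 was lower at −5.87 ± 0.66, the A-type potassium channel Kcnd2 at −3.92 ± 0.60 and the glutamate transporter Slc1a2 at −3.99 ± 0.24. Of the adhesion, matrix and guidance list 10 of 49 were higher and 18 lower. The semaphorin Sema4d was higher by 4.22 ± 0.30, the synaptic adhesion molecule Nrxn3 lower at −4.49 ± 0.73 and the netrin receptor Dcc at −3.86 ± 0.33. Of the 8 neuron markers, 1 and 2 were at 0 in Gpr17-gated cells, and the list summed to 179 and 1227 CPM in Gpr17-gated cells, against 928 and 2575 CPM in precursors. Its part in these calls was not tested. Of the immediate early and stress list 8 of 33 were lower and 1 was higher, the heat shock gene Hspa1b (2.52 ± 0.68). Genes of this list could differ greatly between the mice. In precursors Fos stood at 21.1 and 1627 CPM, Fosb at 11.6 and 939 CPM and Junb at 9.51 and 334 CPM. Outside the lists, the transcriptional coactivator Eya2 (6.88 ± 0.40) and Ddc, the aromatic amino acid decarboxylase (6.13 ± 0.41, 0.50 without the cells over the threshold), were higher, and the receptor tyrosine kinase Alk (−5.63 ± 0.64) and the sarcoglycan Sgcz (−6.04 ± 0.83) were lower.

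Gpr17-gated cells were higher than both precursors and Enpp6-only cells in 520 genes (3.23% of 16097). The focal adhesion protein Parvb was one, with 195 and 249 CPM in Gpr17-gated cells and 6.23 and 6.38 CPM in Enpp6-only cells, against 4.23 and 5.42 CPM in precursors (5.64 ± 0.24 against precursors). The Myc family gene Mycl was another, with 217 and 308 CPM in Gpr17-gated cells and 0.289 and 0.463 CPM in Enpp6-only cells, against 3.17 and 27.1 CPM in precursors (4.18 ± 0.42 against precursors). The 7 mural cell markers, 1 of them at 0 in each mouse, summed to 191 CPM in Gpr17-gated cells of mouse 1 and 7.51 CPM in those of mouse 2, against 46.5 and 62.3 CPM in precursors, and their part in the calls was not tested. The share of ribosomal protein UMIs was 3.30% and 2.72% in Gpr17-gated cells, against 1.06% and 2.14% in precursors.

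**Figure D3:**
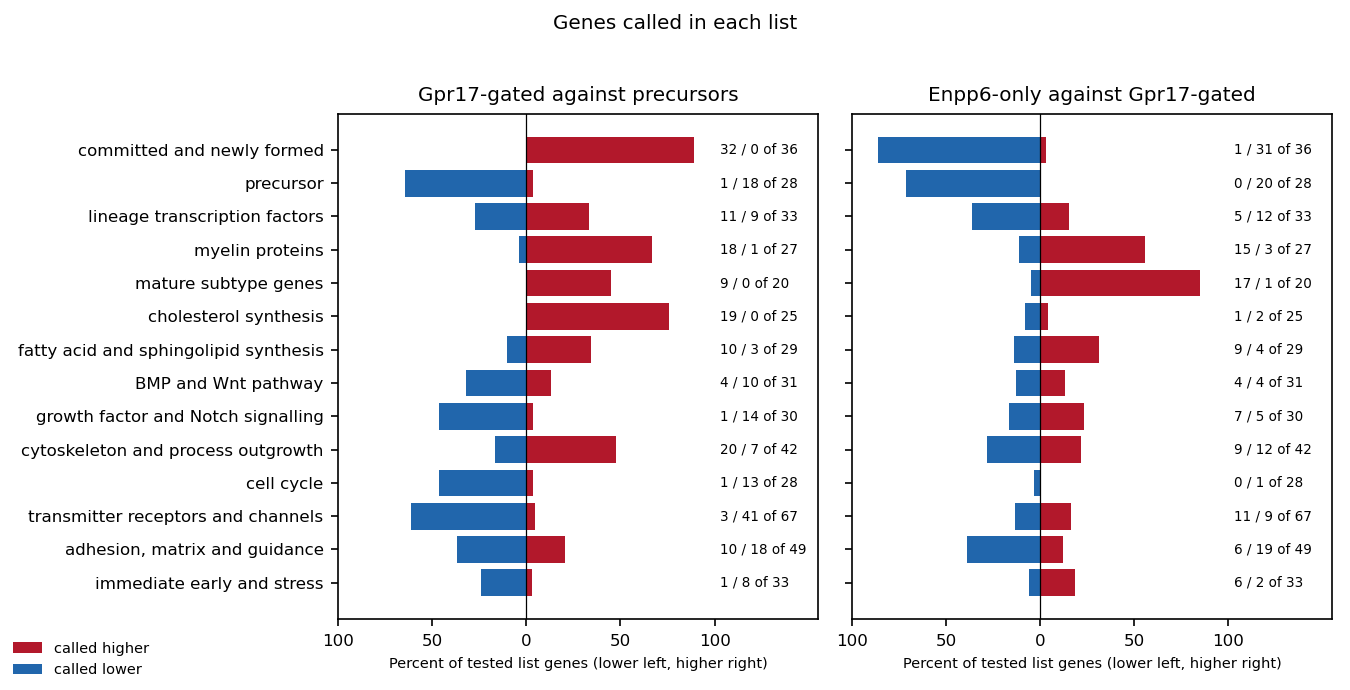
Percent of the tested genes of each list called higher (red, right) or lower (blue, left), with the counts printed as higher / lower of tested, for Gpr17-gated cells against precursors and for Enpp6-only against Gpr17-gated cells. The committed list has 32 of 36 higher in the first comparison and 31 of 36 lower in the second, and the mature subtype list has 17 of 20 higher in the second.

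Enpp6-only cells were lower than Gpr17-gated cells in committed and precursor genes and higher in mature subtype and myelin genes. Of 16097 genes, 1528 (9.49%) were called higher and 1670 (10.4%) lower, 19.9% together. Of the committed and newly formed list 31 of 36 were lower and 1 higher, the adhesion receptor Heg1 (3.46 ± 0.34), at a median of −3.25 beside 0.05 over all genes. Bmp4 had 0.404 and 0.154 CPM in Enpp6-only cells, against 691 and 363 CPM in Gpr17-gated cells (−10.68 ± 0.32, edgeR QL, BH-adjusted p of 5.69e-05). Neu4 was lower at −8.93 ± 0.37, 9630013A20Rik at −9.06 ± 0.35, Kif19a at −7.42 ± 0.35, Bcas1 at −2.62 ± 0.27 and Tcf7l2 at −3.03 ± 0.24. Precursor genes were lower too, 20 of 28, among them tenascin R, Tnr (−7.21 ± 0.66), Vcan (−7.07 ± 0.35), the complement-related C1ql1 (−6.90 ± 0.30) and the receptor Gpr37l1 (−5.81 ± 0.41). Of lineage transcription factors 12 of 33 were lower and 5 higher. Sox4 was lower at −7.13 ± 0.43, Sox6 at −6.90 ± 0.41 and the zinc finger protein Zfp488 at −4.09 ± 0.28.

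Of myelin proteins 15 of 27 were higher and 3 lower. The compact myelin protein Pmp22 was higher by 5.09 ± 0.54, the nodal link protein Hapln2 by 4.96 ± 0.59 and the gap junction protein Gjb1 by 4.79 ± 0.47. The 3 lower ones were the tetraspanin Cd9, with 259 and 146 CPM in Enpp6-only cells, against 3872 and 3031 CPM in Gpr17-gated cells (−3.91 ± 0.44), and the paranodal adhesion genes Nfasc (−2.71 ± 0.28) and Cntn1 (−3.40 ± 0.36). The mature subtype list had 17 of 20 higher and 1 lower, the choline transporter Slc5a7 (−2.41 ± 0.23), at a median of 3.64. Klk6 had 352 and 341 CPM in Enpp6-only cells, against 5.65 and 1.50 CPM in Gpr17-gated cells (7.08 ± 0.56). Anln, an actin-binding protein, was higher by 6.42 ± 0.57, Hopx by 5.70 ± 0.61 and Apod by 4.86 ± 0.74. Of cholesterol synthesis 1 of 25 was higher, Ebp (1.13 ± 0.21), and 2 lower, among them Mvd (−1.47 ± 0.25). Fatty acid genes had 9 of 29 higher and 4 lower, with the desaturase Scd1 higher by 3.66 ± 0.27, Elovl5 by 2.06 ± 0.19 and Fabp7 lower at −4.36 ± 0.36.

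Signalling and cytoskeletal lists held genes called in both directions, where 9.49% of all genes were called higher and 10.4% lower. Median log2 fold changes were 0.04 in the BMP and Wnt list and 0.14 in the receptor and channel list, beside 0.05 over all genes. In the BMP and Wnt list 4 of 31 were higher and 4 lower, near the shares of all genes. Daam2 (3.54 ± 0.31) and the Wnt inhibitor Nkd1 (2.32 ± 0.24) were among those higher in Enpp6-only cells. Of the growth factor and Notch list 7 of 30 were higher and 5 lower. Etv1 was higher by 3.88 ± 0.39 and the receptor Fgfr2 by 1.44 ± 0.31. Of the cytoskeleton list 9 of 42 were higher and 12 lower. Marcks stood at 14.3 and 32.8 CPM in Enpp6-only cells, against 2091 and 2116 CPM in Gpr17-gated cells (−6.41 ± 0.40), and Tubb2b was lower at −5.34 ± 0.54. The microtubule regulators Stmn1 and Stmn4 were higher by 3.72 ± 0.51 and 3.25 ± 0.38. Of receptors and channels 11 of 67 were higher and 9 lower, with the metabotropic receptor Grm3 higher by 3.91 ± 0.50, the channel Hcn2 by 3.85 ± 0.48, the glutamate transporter Slc1a3 by 4.07 ± 0.35 and the AMPA receptor subunit Gria2 lower at −4.05 ± 0.39. Of the adhesion, matrix and guidance list 6 of 49 were higher and 19 lower, the lower ones including brevican, Bcan (−6.45 ± 0.41), and the semaphorins Sema4a (−5.53 ± 0.48) and Sema3d (−4.71 ± 0.25). Of the immediate early and stress list 6 of 33 were higher and 2 lower, and of the cell cycle list 1 of 28 was lower, the kinase inhibitor Cdkn2c (−1.92 ± 0.31). With the gate set per 10000 UMIs, Mvd stood at −0.31, Nfasc at −1.24, Cntn1 at −1.14 and Pik3r3 (−4.28 in the comparison above) at −1.32, and none of these was called. The 7 astrocyte markers, of which Slc1a3 is 1, summed to 191 and 167 CPM in Enpp6-only cells, against 54.9 and 25.8 CPM in Gpr17-gated cells, where 0 and 2 of them were at 0. The 8 neuron markers summed to 589 and 1674 CPM in Enpp6-only cells, against 179 and 1227 CPM in Gpr17-gated cells, and the 4 red blood cell markers to 191 and 477 CPM in Enpp6-only cells, against 175 and 32.8 CPM in Gpr17-gated cells. The 7 mural cell markers summed to 58.2 and 66.7 CPM in Enpp6-only cells, against 191 and 7.51 CPM in Gpr17-gated cells. Median mitochondrial UMIs were 5.33% and 3.74% in Enpp6-only cells, against 3.86% and 2.39% in Gpr17-gated cells. The part of these in the calls was not tested.

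Enpp6-only cells and mature oligodendrocytes, populations that the gate separates by Enpp6, differed in 219 of 16097 genes, 144 higher (0.895%) and 75 lower (0.466%), or 1.36%. The mature subtype list had 5 of 20 genes higher and 2 lower at a median of −0.05 beside −0.01 over all genes. Klk6 had 352 and 341 CPM in Enpp6-only cells, against 3.61 and 7.48 CPM in mature oligodendrocytes, 5.94 ± 0.46 on the log2 scale (edgeR QL, BH-adjusted p of 0.00643). S100b had 686 and 839.8 CPM in Enpp6-only cells, against 30.6 and 32.4 CPM in mature cells (4.53 ± 0.39), Hopx 102 and 159.9 CPM in Enpp6-only cells, against 1.80 and 6.53 CPM in mature cells (5.10 ± 0.48), and Anxa5 123 and 170.0 CPM in Enpp6-only cells, against 14.6 and 18.2 CPM in mature cells (3.10 ± 0.47). Slc5a7 was also higher (2.08 ± 0.24), but stood at −1.02 with the gate set per 10000 UMIs. In each of these genes the values of both mice in Enpp6-only cells lay above both in mature cells.

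The 2 lower genes of that list were Ptgds and Opalin. Ptgds had 3227 and 948 CPM in Enpp6-only cells, against 16851 and 9822 CPM in mature oligodendrocytes (−2.96 ± 0.35), with 895 and 515 CPM in microglia as background. Opalin, a myelin sialoglycoprotein, had 411 and 265 CPM in Enpp6-only cells, against 999 and 1008 CPM in mature cells (−1.68 ± 0.28). Apod stood at 3549.9 and 2889.5 CPM in Enpp6-only cells, against 1763 and 1218 CPM in mature cells, and was not called. Of the 27 myelin proteins 1, Opalin, was called. Mbp stood at 4358 and 4123 CPM in Enpp6-only cells, against 4195 and 3987 CPM in mature cells. Of the committed and newly formed list 2 of 36 were lower, the sulfotransferase Ust (−1.83 ± 0.24) and the adaptor Plekha1 (−1.28 ± 0.22), and Bcas1 (−0.39 ± 0.26), Tcf7l2 (−0.10 ± 0.22) and Bmp4 (−0.97 ± 0.37) were not called.

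Elsewhere the differences were single genes. The growth factor list had Fgfr1 higher (1.61 ± 0.23) and the receptor tyrosine kinase Kit lower (−2.82 ± 0.37), the cell cycle list Cdkn1c higher (3.40 ± 0.27), the guidance list Sema5a higher (2.29 ± 0.31) and Sema3d lower (−1.28 ± 0.22), the transcription factor list Zfp488 lower (−1.50 ± 0.26) and the lipid list the desaturase Fads1 lower (−1.50 ± 0.23). Outside the lists, the homeobox gene Nkx2-9 was higher by 6.27 ± 0.72 (51.1 ± 5.09 CPM in Enpp6-only cells, against 0.638 ± 0.0552 CPM in mature cells), the contactin Cntn3 by 2.81 ± 0.31, the tetraspanin Tspan9 by 2.79 ± 0.28, Rapgef5 by 2.68 ± 0.18 and the ether lipid monooxygenase Agmo by 2.67 ± 0.30. Lower were the adhesion molecule Kirrel3 (−2.33 ± 0.30), the small GTPase Rhoj (−2.35 ± 0.40), the protease Adamts1 (−2.25 ± 0.36) and Tent5a (−2.16 ± 0.20). Ttr, the thyroxine carrier of the choroid plexus, was called at −5.95 ± 0.27, but its level rested on mouse 1, with 4.33 and 0 CPM in Enpp6-only cells, against 256 and 0.180 CPM in mature oligodendrocytes. The call of Ttr was lost with mature cells matched in UMIs (−0.43).

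**Figure D4:**
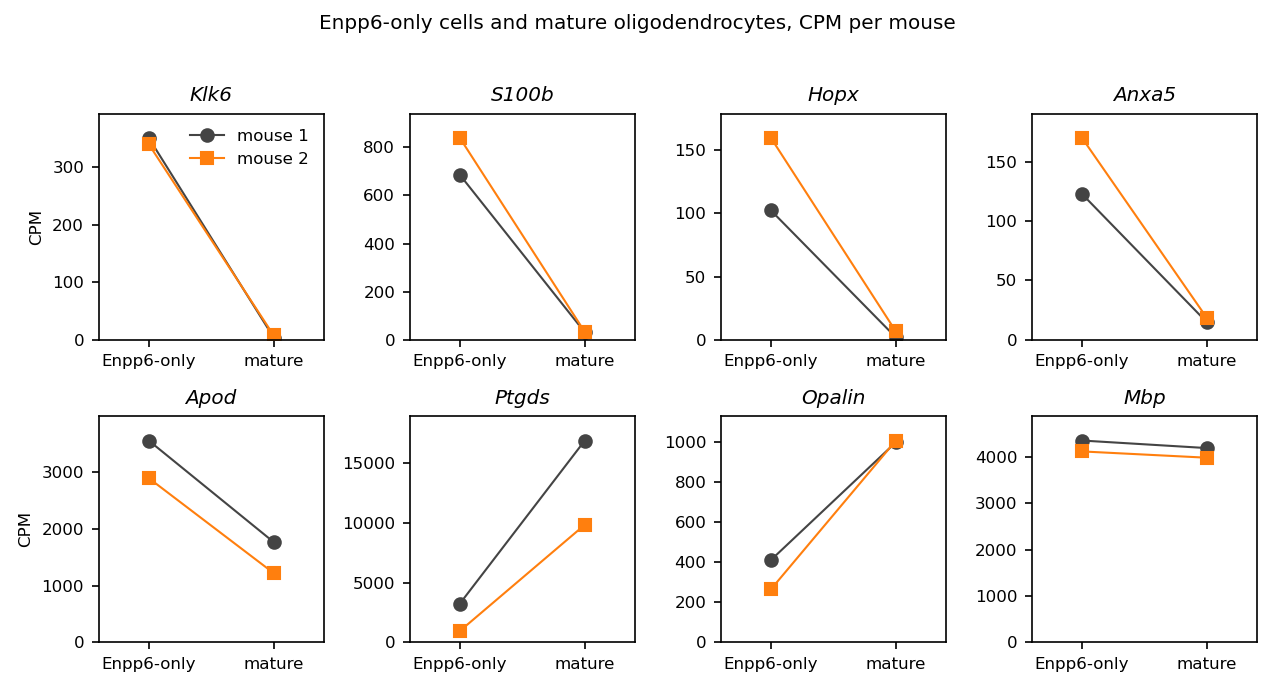
CPM of 8 genes in Enpp6-only cells (left) and mature oligodendrocytes (right), 1 point per mouse joined by a line within the mouse. Klk6, S100b, Hopx and Anxa5 are higher and Ptgds and Opalin lower in Enpp6-only cells in each mouse, while Mbp and Apod were not called.

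Cells with Klk6 were mostly cells with Enpp6. Klk6 at 5 UMIs or more was found in 206 of 460 Enpp6-only cells (44.8%, exact 95% interval 40.2 to 49.5) and 407 of 774 (52.6%, 49.0 to 56.2), against 1 of 1514 (0.0661%) and 8 of 2405 (0.333%) mature oligodendrocytes. After thinning to 5000 UMIs, 46.3% and 59.4% of Enpp6-only cells held a Klk6 UMI, against 1.84% and 2.95% of mature oligodendrocytes. The share was 1.01% and 2.01% in microglia, close to that of mature cells. Unlike mature cells, these microglia had no limit on Enpp6, and some lay over the mature threshold. Unthinned, these shares were 69.6% and 77.4% in Enpp6-only cells, against 6.54% and 5.45% in mature cells. All cells over the mature threshold with Gpr17 under 5 that passed the limits on Pdgfra, Aqp4, Cldn5 and Cx3cr1 were then taken. Among them Enpp6 reached 5 UMIs in 8.45% of cells with no Klk6 UMI, 46.5% with 1 to 4 and 97.2% with 5 or more in mouse 1, and in 6.61%, 49.0% and 93.3% in mouse 2. The classes also differed in median depth, at 22811, 27779 and 36422 UMIs in mouse 1 and 13285.5, 17442 and 22525 in mouse 2. Their Enpp6 level was 44.8, 180.5 and 445 CPM in mouse 1 and 66.8, 283 and 460.1 CPM in mouse 2. The part of depth in the relation of both genes was not tested.

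**Figure D5:**
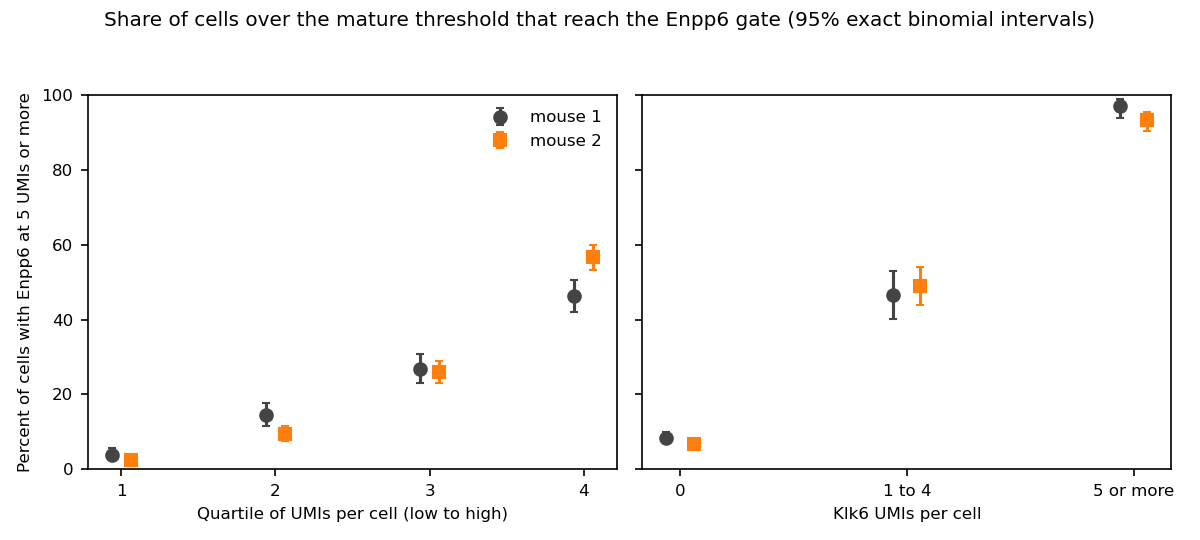
Percent of cells over the mature threshold with Enpp6 at 5 UMIs or more, by quartile of UMIs per cell (left, Gpr17-gated cells included) and by Klk6 UMIs per cell among those with Gpr17 under 5 (right), per mouse with 95% exact binomial intervals. The share rises with depth, to 46.2% and 56.7% in the deepest quartile, and with Klk6, to 97.2% and 93.3% in cells with 5 or more Klk6 UMIs.

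With mature cells matched in UMIs per cell, which left 176 and 364 of them, 48 genes were higher and 27 lower in Enpp6-only cells. With 44 and 142 cells in each population and no matching, 46 were higher and 43 lower, so the parts of depth and of cell number cannot be told apart. Klk6, S100b and Rapgef5 were called there and also without the mouse as a block, where 4 genes were higher and 0 lower (920 at an unadjusted p under 0.05, edgeR QL). The other genes named in this comparison lost their call without the block, with log2 fold changes such as 4.93 for Hopx, 3.09 for Anxa5 and −1.63 for Opalin, and Hopx, Anxa5 and Opalin also lost it with matched UMIs at 5.11, 3.05 and −1.63, as did Slc5a7 (2.11), Nkx2-9 (7.92), Cntn3 (2.65), Sema5a (2.17), Fgfr1 (1.15), Kit (−3.08), Plekha1 (−1.53), Zfp488 (−1.44), Fads1 (−1.44), Rhoj (−2.20) and Adamts1 (−2.36). The 4 red blood cell markers summed to 191 and 477 CPM in Enpp6-only cells, against 1513 and 614 CPM in mature oligodendrocytes, and the 8 neuron markers to 589 and 1674 CPM in Enpp6-only cells, against 358 and 1472 CPM in mature cells. Their part in the calls was not tested.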

How the data were processed

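As deposited by the authors, each of the 2 mice has 1 matrix of unnormalized UMI counts. Cell Ranger 7.1.0, Seurat 5 and the build mm10 are named in the submitters' processing notes, which give no annotation, strand or intron setting. Cells were filtered and gated as stated in the report, and doublets called with Scrublet (scanpy 1.11.5, Python 3.11.15) were kept. Counts were summed per mouse and population and tested with the edgeR 4.0.16 quasi-likelihood test (R 4.3.3, TMM, filterByExpr, robust). Benjamini-Hochberg adjustment ran over all genes that passed the filter, 16476 for all gated cells and 16119 for the divided cells. Gate and mitochondrial genes were among them and were left out afterwards, from the counts of calls and the medians. The model held population and mouse. The mouse was a block because all populations came from the same 2 animals. Deviations of the mice correlated at 0.84 between gated and mature cells, 0.10 between gated cells and precursors and 0.09 between precursors and mature cells, across 8909 genes. Gated cells, precursors and mature cells made 6 sums, and the divided gated cells with both references 8 sums. The planned division by Gpr17 alone was not tested, since its sum in mouse 1 held under 20 cells. This minimum was not applied to the fits without cells over the mature threshold, whose sums in mouse 1 held 18 gated and 16 Gpr17-gated cells.

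The members and the 14 gene lists were chosen with earlier results of these data known. Named genes were, in each comparison, up to 4 called genes per list by size that moved alike in both mice and reached 50 CPM in the higher population, the markers, 15 higher and 8 lower against both neighbours, and up to 5 higher and 5 lower outside the lists. Those printed are a narrower choice made after values were seen. Where a list had few calls in 1 direction, they were named whether or not this rule took them, and the genes shown only as levels under and over the mature threshold were picked with their values in view. The alternatives were DESeq2 1.42.0 and its size factors, no filter on low counts, no block, each mouse alone, a mitochondrial limit of 5%, doublets removed, gates of 3, of 10 and of 5 per 10000 UMIs, cells over the mature threshold left out and equal cell numbers, and for all gated cells the comparison populations by the rule alone. Matching in UMIs and all alternatives for the divided cells were chosen after seeing the data. Tested on simulated counts for gated cells against precursors, the fit called 49 of 50 genes raised 4-fold and 14 of 50 raised 2-fold. The changed genes were few and well counted, and the simulation held no difference between mice. These shares therefore need not hold for the real counts. Some genes that the naming rule took are not reported here.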

Additional observations from a re-analysis of the deposited data

How the results depend on the processing

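The counts against mature oligodendrocytes moved most. For all gated cells, where 132 genes were higher and 22 lower, the numbers higher and lower were 514 and 121 with DESeq2, 316 and 66 with no filter on low counts, 36 and 1 with no replicate block, 184 and 34 with doublets removed, 274 and 54 at a mitochondrial limit of 5%, 69 and 7 at a gate of 3 UMIs, 265 and 62 at 10, 595 and 242 at 5 per 10000, 1580 and 1468 without cells over the mature threshold, 111 and 49 with populations by the rule alone, 71 and 13 with equal cell numbers, and 10 and 0 with UMIs matched (1257 genes at an unadjusted p under 0.05, edgeR). For Enpp6-only cells (144 and 75) they were 269 and 153 with DESeq2, 234 and 130 with no filter, 4 and 0 without the block pairing populations by mouse (920 genes at an unadjusted p under 0.05, edgeR), 121 and 47 at a gate of 3 UMIs, 371 and 378 at 5 per 10000, 46 and 43 with equal cell numbers, and 48 and 27 with UMIs matched. Against precursors, leaving out cells over the mature threshold gave 426 and 657 for all gated cells and 660 and 987 for Gpr17-gated cells (18 and 16 cells in mouse 1), and no replicate block gave 1347 and 1152 for Gpr17-gated cells. DESeq2 size factors moved the median of all genes against precursors by −0.10.

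Signs turned without cells over the mature threshold against precursors for Apod (−1.26), Klk6 (−1.08), Gpr27 (0.54) and Neu4 (0.81), in Gpr17-gated cells for Daam2 (−0.59) and Prom1 (−1.12), and against mature cells for Anxa5 (−0.71), Hopx (−2.73), Klk6 (−2.21) and Rapgef5 (−0.84). In Enpp6-only against mature cells they turned for Tcf7l2 at a gate of 10 UMIs (0.078) and of 5 per 10000 (0.74), for Bmp4 at 5 per 10000 (3.14) and with equal cell numbers (0.10), and for Slc5a7 at 5 per 10000 (−1.02). The cause was not tested. The gated share of kept cells was 9.79% and 12.7% at a gate of 3 UMIs, 5.23% and 5.48% at 10, 2.86% and 5.30% at 5 per 10000, and 5.71% and 11.4% at a mitochondrial limit of 5%.

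With 1 mouse left out each population has 1 sum and no residual degrees of freedom remain, so no new test was run. The other mouse was part of the fit that called the genes and is no independent check. The counts are the called genes that kept their direction, with a log2 fold change of 1 or more in size, in that mouse alone. They ranged from 2002 to 2274 higher and 2304 to 2340 lower for all gated cells against precursors, were 132 higher and 21 to 22 lower against mature cells, 1174 to 1502 and 1688 to 1813 for Gpr17-gated cells against precursors, 1414 to 1420 and 1513 to 1580 for Enpp6-only against Gpr17-gated cells, and 143 to 144 and 72 to 73 for Enpp6-only against mature cells.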
